A study of Mus musculus with 2 samples.

Results

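Small heat shock proteins are low-molecular-weight chaperones that share a conserved alpha-crystallin domain. They bind unfolding proteins without using ATP and hold them until ATP-driven chaperones refold them or autophagy clears them. Several members are known best from heart, skeletal muscle and lens, where they guard the cytoskeleton, and in the mouse cerebellum Hspb1 (Hsp25) is known for marking Purkinje cells in parasagittal stripes. The genes described here are Hspb1, Hspb2, Hspb3, Hspb6, Hspb7, Hspb8 and Cryab, taken by the symbols of the array's annotation. The 7 were selected on the same TRAP and unbound values that are given below. All have values, among 19503 genes in all.

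RNA came from pooled cerebella of Tg(Pcp2-L10a-Egfp) mice at postnatal day 7, and no treatment is recorded in the labels. Their transgene places a ribosomal protein fused to green fluorescent protein under the promoter of Pcp2, a gene of Purkinje cells. The TRAP sample (translating ribosome affinity purification) is RNA from ribosomes captured with antibodies to that tag, and the unbound sample is RNA that the beads left behind. Both come from transgenic tissue, each was hybridised to 1 Affymetrix whole-transcript array, and the labels state neither the number of animals pooled nor whether a single pool gave both samples.

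Values are log2 expression as deposited, and every difference is the TRAP value minus the unbound value. Each fraction has 1 array, hence no replicate and no error for a single gene. No test was run, and genes are described by a difference of at least 2-fold. Because the genes were chosen by these values, what follows is a description. The table has no detection calls. A value above 7.08, the median of all values of both arrays, was taken as above the floor, and a fold that rests on a value under it is uncertain. In these bulk preparations fewer cells of a type, less RNA per cell and a smaller share of an RNA on captured ribosomes cannot be told apart. Unbound is not free of Purkinje cell RNA: the Purkinje markers listed below read 7.11 to 12.96 there.

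The deposited arrays differ in their medians, at 6.92 for TRAP and 7.25 for unbound. The Purkinje cell list read as its name says: all 14 measured markers were on the TRAP side, with 7 past 2-fold, Gng13 and Slc1a6 at the upper end (3.17 and 2.51) and Dner and Pcp4 at the lower (0.62 and 0.49). With the array medians subtracted 12 of the 14 were past 2-fold.

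The promoters of the 4 genes below are shown because these genes stand at both ends of the family on the arrays: Hspb1 and Hspb3 with the largest differences toward TRAP, Hspb6 with a smaller one, and Hspb8 with a difference toward unbound. Each is the 250 bases before the gene's start, from RefSeq on the GRCm38.p6 build, read 5′ to 3′ on the gene's strand. RefSeq windows matched 5 of the 7 genes. Hspb2 and Cryab had no entry. Hspb6 has a pair of annotated starts, and the window shown is that of the second. Capitals mark matches to GAANNTTC or TTCNNGAA, paired units of the heat shock element that heat shock factors bind, and to TATAAA, the TATA box.
Hspb1, chr5:135887669-135887918, plus strand: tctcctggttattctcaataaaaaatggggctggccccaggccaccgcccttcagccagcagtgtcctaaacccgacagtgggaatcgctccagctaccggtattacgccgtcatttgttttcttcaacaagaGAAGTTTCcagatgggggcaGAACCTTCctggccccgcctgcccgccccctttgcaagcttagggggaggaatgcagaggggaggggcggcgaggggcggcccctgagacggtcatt
Hspb3, chr13:113663677-113663926, minus strand: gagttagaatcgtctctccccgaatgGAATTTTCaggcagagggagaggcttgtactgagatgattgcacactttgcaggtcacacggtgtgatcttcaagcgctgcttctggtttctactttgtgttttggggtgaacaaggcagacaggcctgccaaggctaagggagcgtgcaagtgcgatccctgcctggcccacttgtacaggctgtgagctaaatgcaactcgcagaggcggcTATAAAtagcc
Hspb6, chr7:30553051-30553300, plus strand: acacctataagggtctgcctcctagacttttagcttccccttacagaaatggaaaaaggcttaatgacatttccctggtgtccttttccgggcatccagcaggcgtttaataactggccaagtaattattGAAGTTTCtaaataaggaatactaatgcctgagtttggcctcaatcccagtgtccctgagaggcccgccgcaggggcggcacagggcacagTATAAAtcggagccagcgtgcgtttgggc
Hspb8, chr5:116422865-116423114, minus strand: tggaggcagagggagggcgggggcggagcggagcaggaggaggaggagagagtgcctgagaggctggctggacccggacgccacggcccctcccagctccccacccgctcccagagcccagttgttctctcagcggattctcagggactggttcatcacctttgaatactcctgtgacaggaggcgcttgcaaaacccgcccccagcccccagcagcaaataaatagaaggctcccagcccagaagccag

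On either strand, the paired unit was present in the windows of Hspb1, Hspb3 and Hspb6, and 14.5% of the 27025 genes with a window hold it. Hspb1 carried 2 matches, which begin 117 and 97 bases before the start. The match of Hspb3 begins 224 bases before its start and that of Hspb6 120 bases before. No match lay in the windows of Hspb7 and Hspb8 or in the first window of Hspb6. The window of Hspb7, a gene on the TRAP side, and the first window of Hspb6 are not shown. Neither holds a match of any kind marked here, so the windows shown favour matches. Cryab, with the largest difference toward unbound, has no window. A tie between matches and direction was not tested, and the windows shown cannot give one. TATAAA, or TTTATA on the other strand, was found for Hspb3, 11 bases before the start, and for Hspb6, 29 bases before, against 14.3% of genes. These are letter matches and not measured binding.

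Of the 7 genes, Hspb3 and Hspb1 were past 2-fold toward TRAP (2 genes) and Cryab and Hspb8 past 2-fold toward unbound (2 genes). Of all 19503 genes, 4.58% were past 2-fold toward TRAP and 11.0% toward unbound. Above the floor on at least 1 array were 5 of the 7 genes, including all 4 that differed at least 2-fold, and over the 10524 genes above it the shares were 8.11% and 18.6%. Hspb3, Hspb8 and Cryab passed that floor only through the 1 array where they were higher, so passing it adds no support for their differences. The median difference of the 7 genes was 0.46, and that of all genes was 0.10. The family ran from -1.80 to 2.91. Its median is the value of Hspb2, a gene below the floor on both arrays, so it says little about the family.

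**Figure D1:**
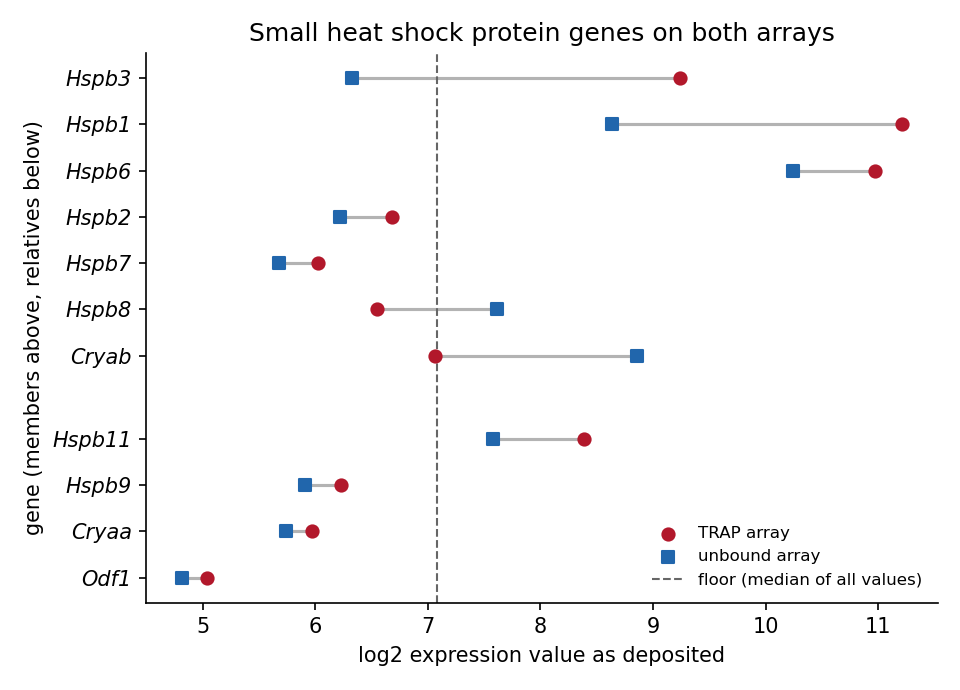
Deposited log2 values of the 7 small heat shock protein genes (upper rows) and 4 further genes of the family (lower rows), with circles for the TRAP array, squares for the unbound array and the floor as a dashed line; there is 1 array per fraction and no error bar. The TRAP circle lies right of the unbound square for Hspb3, Hspb1, Hspb6, Hspb2 and Hspb7 and left of it for Hspb8 and Cryab.

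Hspb3 encodes a short family member found mainly in muscle, and human HSPB3 has been linked to a motor neuropathy. It had a value of 9.24 in TRAP, against 6.33 in unbound. The difference of 2.91, a 7.52-fold higher TRAP value, ranked 6 of 19503 genes. The unbound value lies below the floor, so the fold is uncertain, while the TRAP value lies well above it.

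Hspb1, the Hsp25 of mouse and HSP27 of human, stabilises actin filaments and is a classic target of heat shock factor. Its level was 11.21 in TRAP, against 8.64 in unbound, and this 5.94-fold difference ranked 15 of all genes. Both values are above the floor. Of the 7 genes, Hspb1 alone has more than 1 probe set. The first probe set read 11.24 against 8.72 and the second 11.18 against 8.55, with differences of 2.52 and 2.62. The annotation gives both probe sets the same gene, and a contribution from near-identical gene copies to either cannot be told apart. For scale, the median range of the difference between probe sets of a gene was 0.24 over the 787 genes with several, which measures the probes and not the preparation.

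Hspb6 (Hsp20) is known for its phosphorylation by cyclic nucleotide-dependent kinases in smooth and heart muscle. It read 10.97 in TRAP and 10.24 in unbound, both far above the floor. The difference of 0.73 is 1.66-fold and falls short of 2-fold. In the annotation Hspb6 overlaps Lin37, which read 9.66 in TRAP and 9.72 in unbound.

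Hspb2 and Hspb7 were below the floor on both arrays. Hspb2, which binds the myotonic dystrophy protein kinase and assembles with Hspb3 in muscle, read 6.68 in TRAP and 6.22 in unbound. Hspb7, the cardiovascular member of the family, read 6.02 against 5.68. Their differences of 0.46 and 0.35 have the sign that most dim genes share: of the 8979 genes below the floor on both arrays, 6595 were higher in TRAP, with a median of 0.17.

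Hspb8 (Hsp22) works with the co-chaperone Bag3 to hand misfolded proteins to autophagy. It read 6.55 in TRAP, below the floor, and 7.62 in unbound. The difference of -1.07 is 2.10-fold, just past the 2-fold line, and Hspb8 lies short of that line under each of the other 3 scalings of the arrays (-0.74 to -0.93).

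Cryab encodes alpha B-crystallin, a lens protein that is also abundant in oligodendrocytes, astrocytes and muscle. It read 7.06 in TRAP, just under the floor, and 8.86 in unbound. The difference of -1.80, a 3.48-fold higher unbound value, was the largest of the family toward unbound and ranked 679 of 19503 genes in that direction.

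Hspb2 and Cryab are neighbours on chromosome 9 and stood on opposite sides. The annotated interval of Cryab overlaps that of Hspb2, and it also overlaps 2310030G06Rik, which read 6.57 in TRAP and 5.96 in unbound. Next to the pair, 1110032A03Rik read 11.62 against 11.35 and Dixdc1 9.33 against 9.53. Of the protein-coding genes in this stretch, Cryab alone was at least 2-fold apart. Because the intervals overlap, the assignment of signal to Hspb2 or Cryab depends on where the probes lie, which the table does not give.

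**Figure D2:**
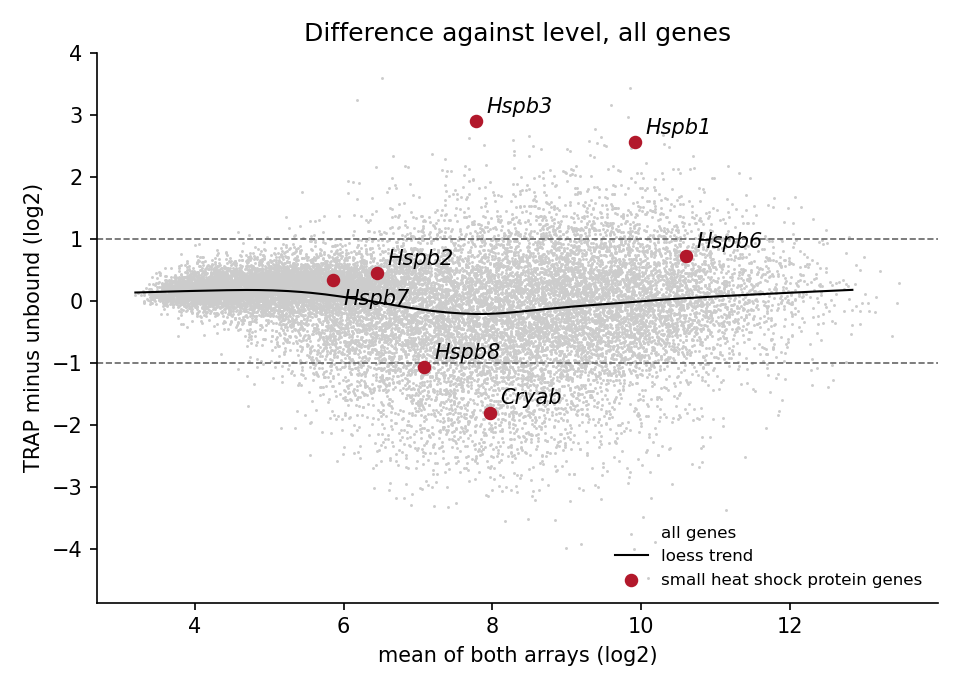
Difference between the arrays (TRAP minus unbound, log2) against the mean of both arrays (log2) for all 19503 genes (grey points), with the loess trend as a line, 2-fold as dashed lines and the 7 genes labelled. Hspb3 and Hspb1 sit near the upper edge of the cloud, Cryab and Hspb8 below the lower dashed line.

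The sign of each of the 7 differences was the same under 4 scalings of the arrays. Hspb3 ranged from 2.91 to 3.24 and Hspb1 from 2.57 to 2.90. Hspb6 ranged from 0.68 to 1.06 and reached 2-fold with the array medians subtracted, the scaling that moves every difference by 0.33 toward TRAP. Cryab ranged from -1.80 to -1.47 and stayed past 2-fold. Under that scaling 16.4% of genes above the floor were past 2-fold toward TRAP and 11.6% toward unbound, a TRAP share of 58.6% against 30.4% as deposited.

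**Figure D3:**
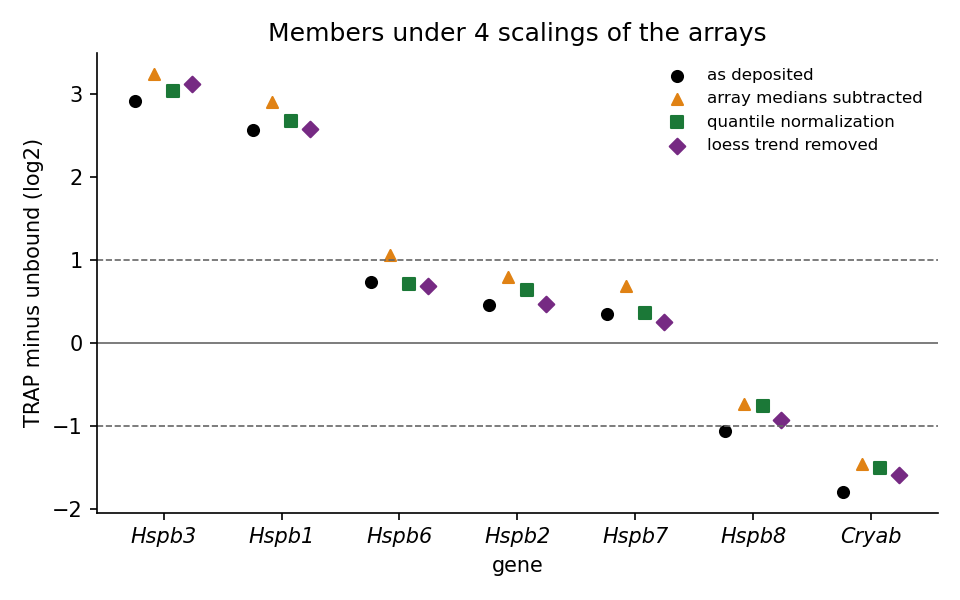
Difference (TRAP minus unbound, log2) of the 7 genes with the arrays as deposited, with the array medians subtracted, after quantile normalization and after removal of a loess trend. Dashed lines mark 2-fold, which Hspb6 reaches under 1 scaling and Hspb8 as deposited only.

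Genes with the most similar pair of values were sought among protein-coding genes, by the distance between the pairs of log2 values on the 2 arrays. With 2 arrays this likeness is weak, and it compares the signal of different probes. Hspb1 lay nearest to Yeats2 (11.10 in TRAP against 8.63 in unbound, distance 0.10). Hspb3 lay nearest to the homeobox gene Dlx4 (9.00 against 6.37, distance 0.24), the largest such distance of the 7. The nearest gene was Ahcyl2 for Hspb6, Card14 for Hspb2, Gapdhs for Hspb7, Zfp868 for Hspb8 and Slc25a53 for Cryab, at distances of 0.0354 or less.

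The other 4 genes listed carry the family's fold or its name, and none was 2-fold apart. Hspb11, named with the family but known as a subunit of intraflagellar transport, read 8.39 in TRAP and 7.58 in unbound, a difference of 0.80. The lens gene Cryaa (5.97 against 5.74) and the testis genes Hspb9 (6.23 against 5.91) and Odf1 (5.04 against 4.82) were below the floor on both arrays. Hspb11 reached 2-fold under each of the other 3 scalings, from 1.01 to 1.14.

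Heat shock factors are the transcription factors that switch on chaperone genes under stress. Of 6 listed genes, which include the factor-binding gene Hsbp1, 1 had no value, and Hsf1 is not among the 5 measured. None of the 5 was 2-fold apart. Hsf3 and Hsf5 (2 genes) were below the floor on both arrays. The median of 0.00 is the value of Hsf5, so it says little about the factors. Hsf4, a factor with a known role in lens, had the highest difference at 0.98 (7.10 in TRAP, 6.12 in unbound) and was past 2-fold under the other scalings. Its unbound value lies below the floor and its TRAP value barely above it, so the fold is uncertain. Hsf2 had the lowest at -0.21, positive with the array medians subtracted.

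No measured gene of the inducible heat shock list differed in size as much as Hspb1 and Hspb3, which were chosen with their values known. Of 12 measured, 1 was at least 2-fold higher in TRAP and 1 in unbound, and the median was 0.06. With the array medians subtracted 4 were past 2-fold toward TRAP and 1 toward unbound, 11 of the 12 were on the TRAP side, and the median was 0.40. Hspe1, the mitochondrial co-chaperonin gene, read 11.76 in TRAP and 10.44 in unbound. Hmox1, encoding heme oxygenase, read 6.61 against 8.19. As deposited, 8 genes of the list were higher in TRAP and 4 in unbound. Genes singled out after their values were seen sat near 0: the Hsp90 gene Hsp90aa1 at 0.02, the Hsp110 gene Hsph1 at -0.01 and the stress-inducible Hsp70 gene Hspa1a at 0.10. Also singled out, Ahsa1 (0.98), Hspd1 (0.89), Hspa4l (0.79) and Dnajb1 (0.55) lay toward TRAP, short of 2-fold. Signs of Hsp90aa1 and Hsph1 turned under other scalings, while the highest difference of the list under any of the 4 scalings was 1.66, below the lowest of Hspb1.

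Among 6 partners of chaperone-assisted autophagy none was 2-fold apart. Bag3, the partner of Hspb8, read 7.20 in TRAP and 8.10 in unbound, a difference of -0.90 on the same side as Hspb8. It was -0.57 with the array medians subtracted and -0.53 after quantile normalization. Stub1, a ubiquitin ligase that works with chaperones, was highest at 0.76 and past 2-fold with the array medians subtracted.

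Intermediate filaments are among the structures that Cryab and Hspb1 are known to bind. Of 10 genes, 2 were past 2-fold toward TRAP and 3 toward unbound. Nefh and Nefm, encoding the neurofilament subunits of large axons, differed by 1.35 and 1.14. Gfap and Vim, filament genes of astrocytes, differed by -3.92 and -2.95, and Nes, of neural progenitors, by -1.22 with both values below the floor.

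A list of Purkinje cell genes, most of them known for striped or subset expression, is the one nearest in kind to Hspb1. Of 9 measured, 8 were on the TRAP side and 5 of these past 2-fold, and the median was 1.64. They share Slc1a6 with the Purkinje list. Prkcd, a protein kinase C gene, differed by 2.65, Slc1a6, a glutamate transporter, by 2.51 and Plcb3, a phospholipase C gene, by 2.10. Car7, a carbonic anhydrase gene, differed by 2.00 and Ebf2, a transcription factor gene, by 1.64. Ncs1 had nearly equal values on both arrays, with a sign that turned when the array medians were subtracted. The value of Hspb1, 2.57, falls inside the range of this list, and Hspb3, at 2.91, above its highest gene. Arrays of pooled tissue hold no position, so stripes were not measured.

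**Figure D4:**
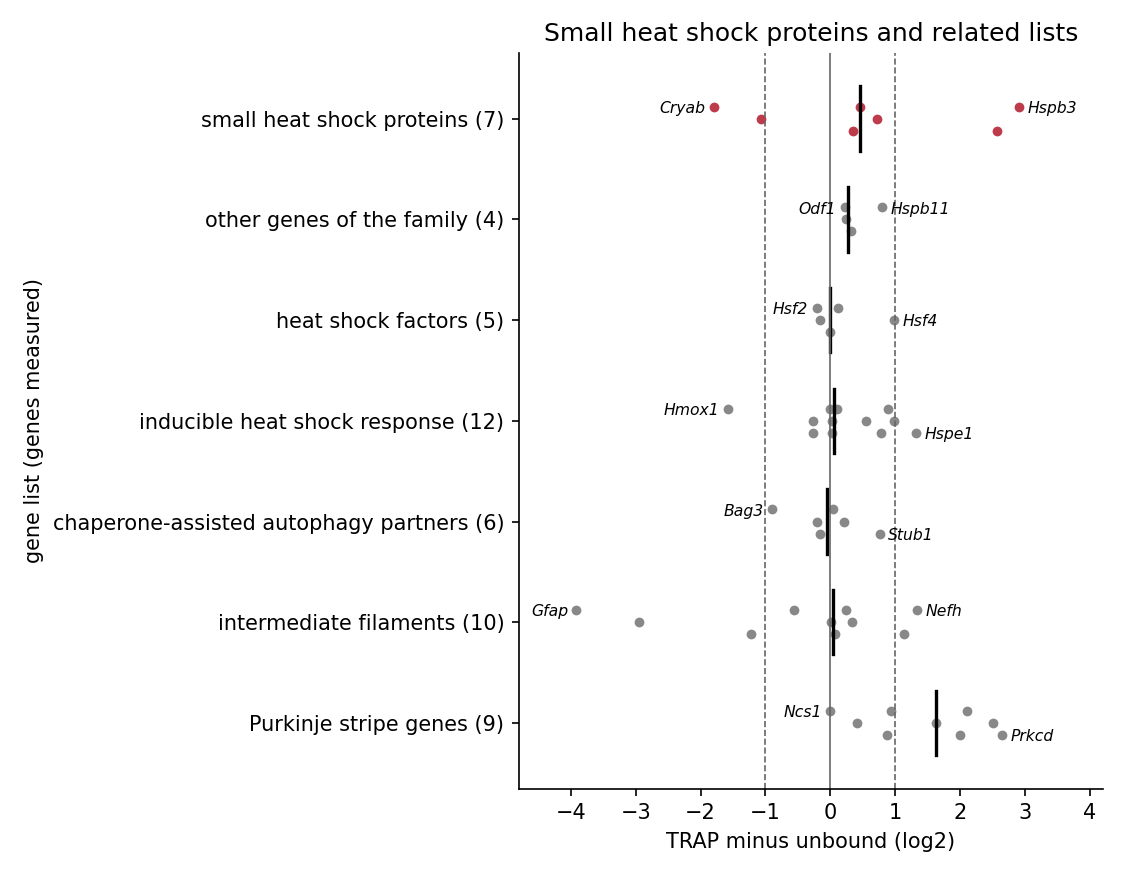
Difference (TRAP minus unbound, log2) of each gene in the small heat shock protein family and the related lists, 1 point per gene, with a vertical bar at the list median and dashed lines at 2-fold. The family spreads from -1.80 to 2.91 while the inducible heat shock list has a median of 0.06.

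Markers of other cells were set beside the family, since several members are known from glia, vessels and muscle. Their part in the differences was not tested, and listed genes without a value were not analysed here. All 10 astrocyte and Bergmann glia markers were on the unbound side, 9 past 2-fold, and their median was -2.07. They read 6.13 to 12.27 in TRAP and 8.27 to 13.25 in unbound, with Gfap and Aqp4 farthest apart (-3.92 and -3.53) and Sox9 and Fabp7 closest (-1.11 and -0.97). All 9 oligodendrocyte lineage markers were on the same side, 8 past 2-fold, with a median of -1.93 and levels of 5.08 to 8.27 in TRAP and 6.36 to 10.46 in unbound. Enpp6 and Sox10 led (-3.05 and -2.21), Mog differed by -1.26, and Cspg4 was nearly equal, with a sign that turned under 2 scalings. The value of Cryab, -1.80, lies among these glial values, and that of Hspb8, -1.07, is smaller in size than all of them but Fabp7 and Cspg4.

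Granule neuron markers were also higher in unbound, all 10 of them and 9 at least 2-fold, with a median of -1.73, from Cbln3 and Gabra6 at -3.05 and -2.78 to Zic1 and Barhl1 at -1.07 and -0.91. The levels of this list were 7.11 to 11.84 in TRAP and 8.72 to 12.91 in unbound. As deposited, the differences of Cryab and Hspb8 lie within the range of this list too, so they do not single out glia. After quantile normalization Hspb8 (-0.77) fell outside it, short of the smallest granule difference (-0.85). It was then also short of the smallest difference of the astrocyte and Bergmann glia list (-1.08).

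Muscle markers bear on Hspb2, Hspb3, Hspb6 and Hspb7, which are known from muscle. For comparison, 57.6% of all genes were higher in TRAP, as were 73.4% of those below the floor on both arrays. Of 15 skeletal and heart muscle markers, 13 were higher in TRAP, but none reached 2-fold and 12 were below the floor on both arrays. Their median difference was 0.41, their levels were 4.76 to 8.18 in TRAP and 4.78 to 7.66 in unbound, and the ends were Mylpf and Myh6 (0.55 and 0.53) and Myl1 and Myh3 (-0.02 and -0.04). The differences of Hspb2 and Hspb7 lie within that range and those of Hspb3, Hspb1 and Hspb6 above it. Hspb3 and Hspb1 stayed above the highest muscle marker under the other 3 scalings, while Hspb6 did so with the array medians subtracted and fell inside the list's range after quantile normalization (0.71, highest marker 0.86) and after removal of the loess trend (0.68, highest marker 0.72).

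Vascular markers were dim. All 8 endothelial markers were below the floor on both arrays, with a median of -0.67, from Emcn and Cdh5 (-1.57 and -1.28) to Cldn5 and Pecam1 (-0.27 and 0.15). Of 9 mural and smooth muscle markers, 3 were past 2-fold, all toward unbound, with Dcn and Acta2 at -2.46 and -2.05 and Cnn1 and Myh11 at 0.15 and 0.18. Microglia markers had a median of -0.47 over 9 genes (Fcer1g and C1qb at -1.62 and -1.59, Aif1 and Tmem119 at -0.16 and 0.25). Choroid plexus markers had a median of -0.71 over 6 genes, from Ttr and Clic6 at -3.37 and -0.81 to Folr1 and Aqp1 at -0.56 and 0.01. With the array medians subtracted these medians were nearer to 0, at -0.34 for endothelium, -0.22 for mural cells (-0.55 as deposited), -0.14 for microglia, where 4 of the 9 genes were then on the TRAP side, and -0.38 for choroid plexus. Of the marker genes named here with differences near 0, Cldn5, Myl1, Myh3 and Aif1 turned positive with the array medians subtracted and Aqp1 turned negative after removal of the loess trend.

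**Figure D5:**
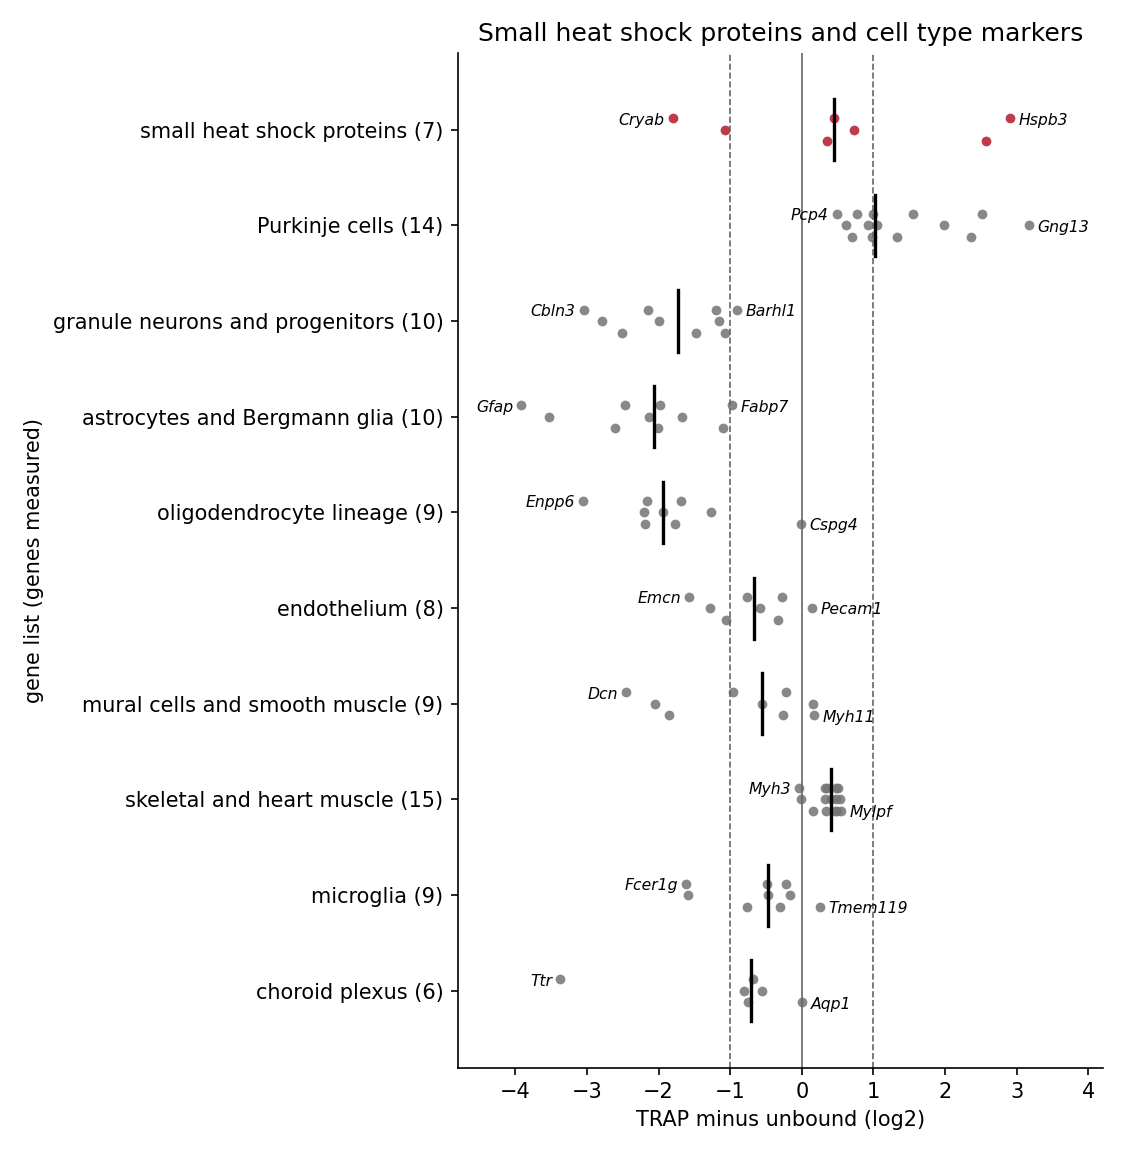
Difference (TRAP minus unbound, log2) of the small heat shock protein genes and of each cell type marker list, 1 point per gene, with a vertical bar at the list median and dashed lines at 2-fold. Hspb3 and Hspb1 lie on the side of the Purkinje markers, and Cryab and Hspb8 on the side of the glial and granule cell markers.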

How the data were processed

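The deposited values are log2 expression, 1 per probe set on each array. Per the submitters' processing notes the authors used Affymetrix Power Tools. Version, background correction, normalization, summary method and log base are not stated there, and log2 was inferred from the range of the values. Of 22097 probe sets, 20999 name 1 gene in the platform annotation, 91 name several and were left out, and 1007 are unnamed. RefSeq (GRCm38.p6) matched 20959 of the named ones by Entrez identifier. Probe sets of a gene were averaged (pandas 2.3.3), giving 19503 genes. The number of arrays, not a read depth, limits the precision, and no test was run.

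The 7 genes and all lists were chosen with earlier results of these data known. Named are the 7 genes, the 4 others of the family, list genes at least 2-fold apart or at the ends of their list, nearest genes and, beside Hspb2 and Cryab, neighbouring genes. Lin37 and genes said to be singled out were added after their values were seen. Alternatives were array medians subtracted, quantile normalization, a loess trend removed (span 0.3, statsmodels 0.14.6), other floors, the brightest probe set, and folds of 1.5 and 4. Scripts were tested on simulated data.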

Additional observations from a re-analysis of the deposited data

How the results depend on the processing

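The count of the 7 genes at least 2-fold higher in unbound was 1 instead of 2 with the array medians subtracted, with quantile normalization and with the loess trend removed, because Hspb8 fell short. It was 0 with a floor at the 75th percentile, which left 3 of the 7 genes, and 0 at 4-fold. The count higher in TRAP was 2 or 3 in all these settings. Over all genes, subtracting the array medians gave 1723 genes at least 2-fold higher in TRAP and 1215 in unbound, against 853 and 1955 as deposited. The 75th-percentile floor gave 986 genes higher in unbound, from the fewer genes tested. At 1.5-fold the counts were 1983 and 3252, and at 4-fold 78 and 457. None of the 7 genes changed sign with another scaling or with the brightest probe set. No paired analysis was possible because each fraction was measured on 1 array, and no replicate could be left out. Background correction could not be varied without scanner signals. List medians are over all measured genes. A floor on them, added after seeing the data, left no endothelial marker and so gave no value for that list. Floors keep dim genes mainly through the array where they are high, so list medians above a floor are not given.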
